A study of Mus musculus with 12 samples.

Results

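The SMC family of the mouse was followed through Smchd1 null and Smchd1 wildtype pre-B cells: Smchd1 itself, the cohesin genes Smc1a and Smc3, the condensin genes Smc2 and Smc4, and Smc5 and Smc6. Members were all array probes whose target name in the deposited probe table equals 1 of these 7 symbols, whatever the case. This gave 17 of 45281 probes under 6 of the 7 names: 5 for SMCHD1, 5 for SMC1A, 4 for SMC3 and 1 each for SMC2, SMC4 and SMC6. No probe carries the name SMC5, so 3 probes under older names, SMC5L1 (2 probes) and 2500002A22RIK (1 probe, a synonym of Smc4), were added through the gene table and are marked as such. Smchd1 lies on chromosome 17, Smc1a on X, Smc2 on 4, Smc3 and Smc5 on 19, Smc4 on 3 and Smc6 on 12. The data come from 12 Illumina mouse arrays, 1 per sample. The null group held 6 samples with the Smchd1 gene-trap allele on both chromosomes, and the wildtype group held 6 samples without it. Every sample of both groups was on C57BL/6 and carried the Eµ-Myc transgene, in which the heavy-chain enhancer drives Myc in B-lineage cells, so there is no comparison here with cells lacking the transgene. The cells were sorted, premalignant pre-B cells taken fresh from mice. The sources used here do not give age, sex or whether a sample pools several mice, so p-values reflect only how these samples vary, which may be in part technical.

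SMC proteins fold into long coiled coils with a hinge at one end and an ATPase head at the other, and work in pairs as rings that hold or fold DNA. Smc1a and Smc3 form the core of cohesin, which holds sister chromatids together and extrudes chromatin loops. Smc2 and Smc4 form the core of condensin, which compacts chromosomes for mitosis, and Smc5 and Smc6 form a complex known for its part in DNA repair. Smchd1 is a non-canonical member that joins an SMC hinge to an ATPase of the GHKL type, the type also found in Hsp90, and helps to keep genes silent on the inactive X, at imprinted loci and in some gene clusters.

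Smc1a and Smc3, each by its brightest probe, had the highest Pearson correlation among the SMC genes (0.72, genotype means removed). Smc3 and Smc5 followed at 0.70. Promoters are shown for Smchd1, the gene the samples were made to lack, and for Smc1a and Smc3. Each is the 300 bases from 250 before to 50 after the start of the gene, read 5′ to 3′ on the gene's strand (RefSeq, GRCm38.p6): chr17:71475294-71475593 on the minus strand, chrX:152016178-152016477 on the plus strand and chr19:53600146-53600445 on the plus strand. Capitals mark letters of 4 short motifs searched on both strands: CACGTG (the E-box that Myc binds with Max), TTTGAA or TTCAAA (the CHR element of cell cycle genes), TTTCCCGC or GCGGGAAA (an E2F motif) and CCAAT or ATTGG.
Smchd1: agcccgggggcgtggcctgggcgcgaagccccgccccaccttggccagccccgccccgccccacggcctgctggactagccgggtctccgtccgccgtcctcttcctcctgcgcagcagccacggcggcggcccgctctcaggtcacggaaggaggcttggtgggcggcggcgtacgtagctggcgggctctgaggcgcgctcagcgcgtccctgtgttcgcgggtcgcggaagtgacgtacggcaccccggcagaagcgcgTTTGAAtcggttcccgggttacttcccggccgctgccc
Smc1a: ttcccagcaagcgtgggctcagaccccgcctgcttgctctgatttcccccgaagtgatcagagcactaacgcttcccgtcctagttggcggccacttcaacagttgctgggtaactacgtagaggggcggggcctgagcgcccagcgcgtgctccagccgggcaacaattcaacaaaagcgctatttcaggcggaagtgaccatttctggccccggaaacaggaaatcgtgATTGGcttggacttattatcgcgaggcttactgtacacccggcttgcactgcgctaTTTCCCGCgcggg
Smc3: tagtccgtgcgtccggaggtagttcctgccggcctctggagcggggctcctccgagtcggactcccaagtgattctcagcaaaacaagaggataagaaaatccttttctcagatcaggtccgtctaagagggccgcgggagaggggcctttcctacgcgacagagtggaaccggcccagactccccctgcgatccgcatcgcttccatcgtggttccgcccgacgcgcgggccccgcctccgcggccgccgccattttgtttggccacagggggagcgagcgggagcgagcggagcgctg
The Smchd1 promoter holds TTTGAA once, and 17.9% of the 32851 mouse promoters searched hold TTTGAA or TTCAAA. The Smc1a promoter holds TTTCCCGC once and ATTGG once. Of these promoters 1.07% hold TTTCCCGC or GCGGGAAA, and 37.4% hold CCAAT or ATTGG. The Smc3 window holds none of the 4 motifs. None of the 6 member promoters in the table (that of Smc4 is not among them) holds CACGTG, which 7.15% of all promoters hold. A match is a string of letters and no binding was measured.

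Levels are log2 intensities after background correction with the negative control probes and quantile normalization, and a probe counted as detected at a detection p under 0.05 against those controls. Probes detected on at least 3 of the 12 arrays were tested, 17607 in all. Each change is the null mean less the wildtype mean in log2 units, and every adjusted p is from limma over all 17607 probes, called at adjusted p under 0.05. At this threshold 1.22% of all tested probes were called, 0.687% as lower and 0.534% as higher in null cells. Of the 17 member probes 10 were tested, 3 of them for Smchd1, and the 3 probes under older names were tested as well. The arrays detected between 15396 and 16587 probes each, and each probe value is the mean of many beads (19 to 68 for the member probes). Markers of the labelled cell type were present: all 7 B-lineage genes of the list that are on the array passed the detection filter, among them Cd79b, a part of the B-cell receptor. With 1 array per sample, fewer cells of a type and less RNA per cell cannot be told apart.

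Smchd1 mRNA was lower in null cells by every probe that detected it, though by unlike amounts. The probe with the brightest wildtype signal (ILMN_1242619) read 5.19, 5.65, 4.89, 4.87, 5.04 and 4.63 in null 1 to 6, against 9.48, 9.30, 9.38, 9.37, 9.62 and 9.64 in wildtype 1 to 6. The highest null array thus lay 3.65 log2 units under the lowest wildtype array. The mean was 5.05 ± 0.35 in null and 9.47 ± 0.14 in wildtype arrays (SD, n = 6 each), a change of -4.42 (95% interval -4.73 to -4.11, limma adjusted p = 1.34e-09). The signal did not vanish everywhere: the probe was detected on null 1, null 2, null 3 and null 5 and not on null 4 or null 6. Its residue was highest in null 2, where the raw intensity of 164.4 stood above the 95th percentile of that array's negative controls (134.6) at a detection p of 0.

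The second probe (ILMN_1230552) kept a larger share of its signal. It read 6.00, 5.55, 5.70, 5.61, 5.74 and 5.96 in null 1 to 6, against 6.85, 7.09, 7.31, 6.84, 7.38 and 7.42 in wildtype 1 to 6, and was detected on all 12 arrays. Its change was -1.39 (95% interval -1.66 to -1.11, limma adjusted p = 6.28e-05), and the groups did not overlap. The third probe (ILMN_2853225) read 4.46 to 4.60 on the null arrays, with a median of 4.51, and was detected on none of them. On the wildtype arrays it read 5.50 to 6.12, with a median of 5.91, and was detected on all 6. It passed the detection filter through the wildtype arrays alone. Its signal thus fell by a factor of 1.87 or more, a bound that carries no p-value. The fitted change was -1.31 (limma adjusted p = 1.07e-05), computed from null values that were not detected. All 6 null arrays lay below all 6 wildtype arrays for ILMN_1242619 and ILMN_1230552. Of all tested probes 1.63% showed a separation in this direction. ILMN_2853225 separated too, but it was detected on wildtype arrays only, so its separation adds no support. The other 2 Smchd1 probes (ILMN_2663704 and ILMN_2490558) were detected on no array of either genotype and stayed between 4.30 and 4.58, which leaves them without information.

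**Figure D1:**
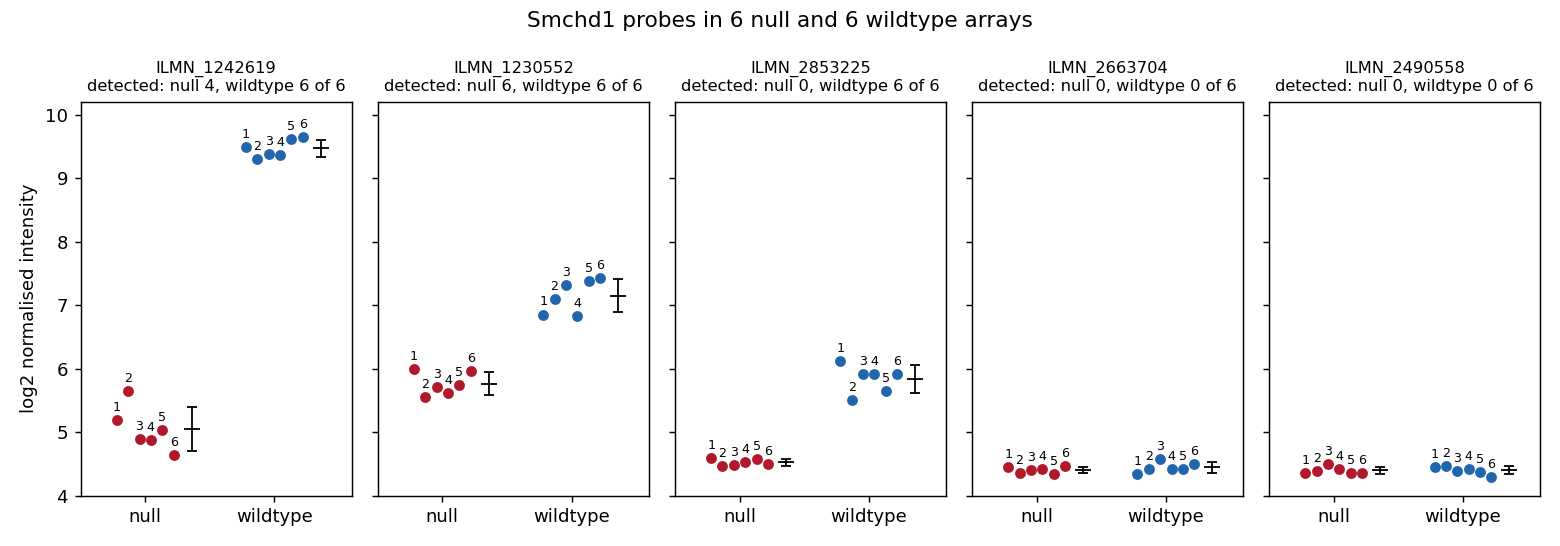
Log2 normalised intensity of the 5 Smchd1 probes on each array, null on the left and wildtype on the right of each panel. Points are arrays numbered by replicate, and bars are the mean and SD of 6 arrays. The first 3 probes separate the genotypes without overlap and the last 2 were detected on no array.

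On the background-corrected linear scale the probes gave different residues. The normalization adds 16 to each value before the logarithm. With this taken off, ILMN_1242619 averaged 17.9 intensity units in null and 694.0 in wildtype arrays, so that null cells held 2.58% of the wildtype signal as an upper value, since 2 of the 6 null arrays did not detect the probe. ILMN_1230552 averaged 38.6 units in null and 127.8 in wildtype arrays, or 30.2%. ILMN_2853225 averaged 7.02 units in null and 41.7 in wildtype arrays. The correction leaves a small positive value on unlit probes, and the 7 member probes detected on no array averaged between 4.18 and 9.84 units in either group, the range in which ILMN_2853225 lay in null cells. Among the 4 null arrays on which both were detected, null 2 was the highest by the first probe (34.3 units) and the lowest by the second (30.9 units). The tables used here give no probe sequence, and the places of the probes and of the trap in the gene were not known here.

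Within BeadChips, the glass slides that hold 3 null and 3 wildtype arrays each, the fall was alike in size. The first probe changed by -4.54 on BeadChip 1 and -4.30 on BeadChip 2, and the second by -1.31 and -1.46. With 3 arrays against 3, the second probe did not pass on BeadChip 1 (limma adjusted p = 0.092), nor did the third (0.097). Without background correction the 3 changes were -2.72, -0.70 and -0.45, all still called, the last being a fitted value against null arrays without detection.

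None of the SMC genes other than Smchd1 passed the test in null cells. The 10 tested probes of Smc1a, Smc3, Smc4, Smc5 and Smc6 had changes from -0.31 to -0.11 with a median of -0.23, beside a median of -0.04 over all tested probes. All 10 had a fitted change below 0, as did 58.2% of all tested probes. In limma 0 of 10 passed after adjustment and 3 of 10 had an unadjusted p under 0.05, a level that 18.1% of all tested probes reached. Probes of 1 gene share their transcript and all 10 share their arrays, so these counts are not independent.

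Neither gene of the cohesin core passed the test. The Smc1a probe with the highest mean (ILMN_2732689) ran from 11.34 through a median of 11.57 to 11.83 in null arrays, against 11.67 through 11.79 to 11.97 in wildtype arrays. The groups overlapped, with 4 null arrays below the lowest wildtype array and null 5 the lowest. Its change was -0.22 (95% interval -0.42 to -0.01, limma adjusted p = 0.26). A second Smc1a probe (ILMN_2610835) ran from 8.51 through 8.91 to 9.08 in null arrays, against 8.95 through 9.08 to 9.26 in wildtype arrays, a change of -0.24 (95% interval -0.46 to -0.03, limma adjusted p = 0.23). The other 2 tested probes of Smc1a, ILMN_2952114 and ILMN_1220530, changed by -0.17 (limma adjusted p = 0.39) and -0.27 (limma adjusted p = 0.32), and the fifth (ILMN_1253332) was detected on no array. The intervals put a fall in Smc1a of more than 0.57 log2 units outside the 95% range for every tested probe.

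Smc1a lies on the X chromosome, and its 4 tested probes did not move alike from array to array. With the genotype means removed, ILMN_2952114 and ILMN_2610835 had a Pearson correlation of 0.89 over the 12 arrays, while ILMN_2952114 and the dimmest tested probe, ILMN_1220530, had one of -0.01. On BeadChip 1 the changes of ILMN_2732689, ILMN_2952114 and ILMN_2610835 were -0.38, -0.35 and -0.39, against -0.06, 0.007 and -0.09 on BeadChip 2. For ILMN_1220530 the order was turned round, with -0.08 on BeadChip 1 and -0.46 on BeadChip 2. The difference between BeadChips was not tested, and each BeadChip holds its own 3 null samples.

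Smc3, the partner of Smc1a in the cohesin ring, was detected by 1 of its 4 probes (ILMN_2604080). It ran from 6.96 through 7.41 to 8.01 in null arrays, against 7.52 through 7.58 to 7.84 in wildtype arrays. The null group held both the highest array (null 1) and the lowest (null 5), and its SD of 0.36 exceeded the wildtype SD of 0.14. The change was -0.21 (95% interval -0.53 to 0.11, limma adjusted p = 0.48), and it was -0.11 without null 5 and -0.03 with null 3 and null 5 left out.

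Of the 2 condensin SMC genes only Smc4 was detected. Under its own name Smc4 has 1 probe (ILMN_2709097), which ran from 5.23 through 5.68 to 5.90 in null arrays, against 5.67 through 5.88 to 6.11 in wildtype arrays. Its change was -0.22 (95% interval -0.48 to 0.04, limma adjusted p = 0.35), and -0.13 without null 3. The probe under the older name (ILMN_1255902) ran from 6.96 through 7.45 to 7.98 in null arrays, against 7.31 through 7.84 to 8.03 in wildtype arrays, a change of -0.28 (95% interval -0.65 to 0.08, limma adjusted p = 0.40). The groups overlapped for both probes. The 2 probes had a Pearson correlation of 0.13 over the 12 arrays with the genotype means removed, and the lowest array was null 3 by the first and null 5 by the second. Smc2, its condensin partner, has a single probe (ILMN_2689642), which read 4.35 to 4.87 in null and 4.50 to 4.84 in wildtype arrays. It was detected on no array, so that nothing can be said of its level beyond its lying within background.

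Smc5 and Smc6, the pair of the DNA repair complex, were detected on all 12 arrays. Of the 2 Smc5 probes, both under the older name, ILMN_2695150 ran from 7.15 through 7.88 to 8.08 in null arrays, against 7.94 through 8.12 to 8.28 in wildtype arrays. Its change of -0.31 (95% interval -0.60 to -0.02, limma adjusted p = 0.25) was the largest of the 10 probes and rested in part on null 5, the array at 7.15: without null 5 it was -0.18. ILMN_2695149 changed by -0.25 (95% interval -0.52 to 0.03, limma adjusted p = 0.32). These 2 probes had a Pearson correlation of 0.80 over the 12 arrays with the genotype means removed. Smc6 has 1 probe (ILMN_2728385), which ran from 7.22 through 7.59 to 7.70 in null arrays, against 7.49 through 7.66 to 7.80 in wildtype arrays. Its change was -0.11 (95% interval -0.32 to 0.09, limma adjusted p = 0.56), the smallest of the family, and was -0.05 without null 5.

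**Figure D2:**
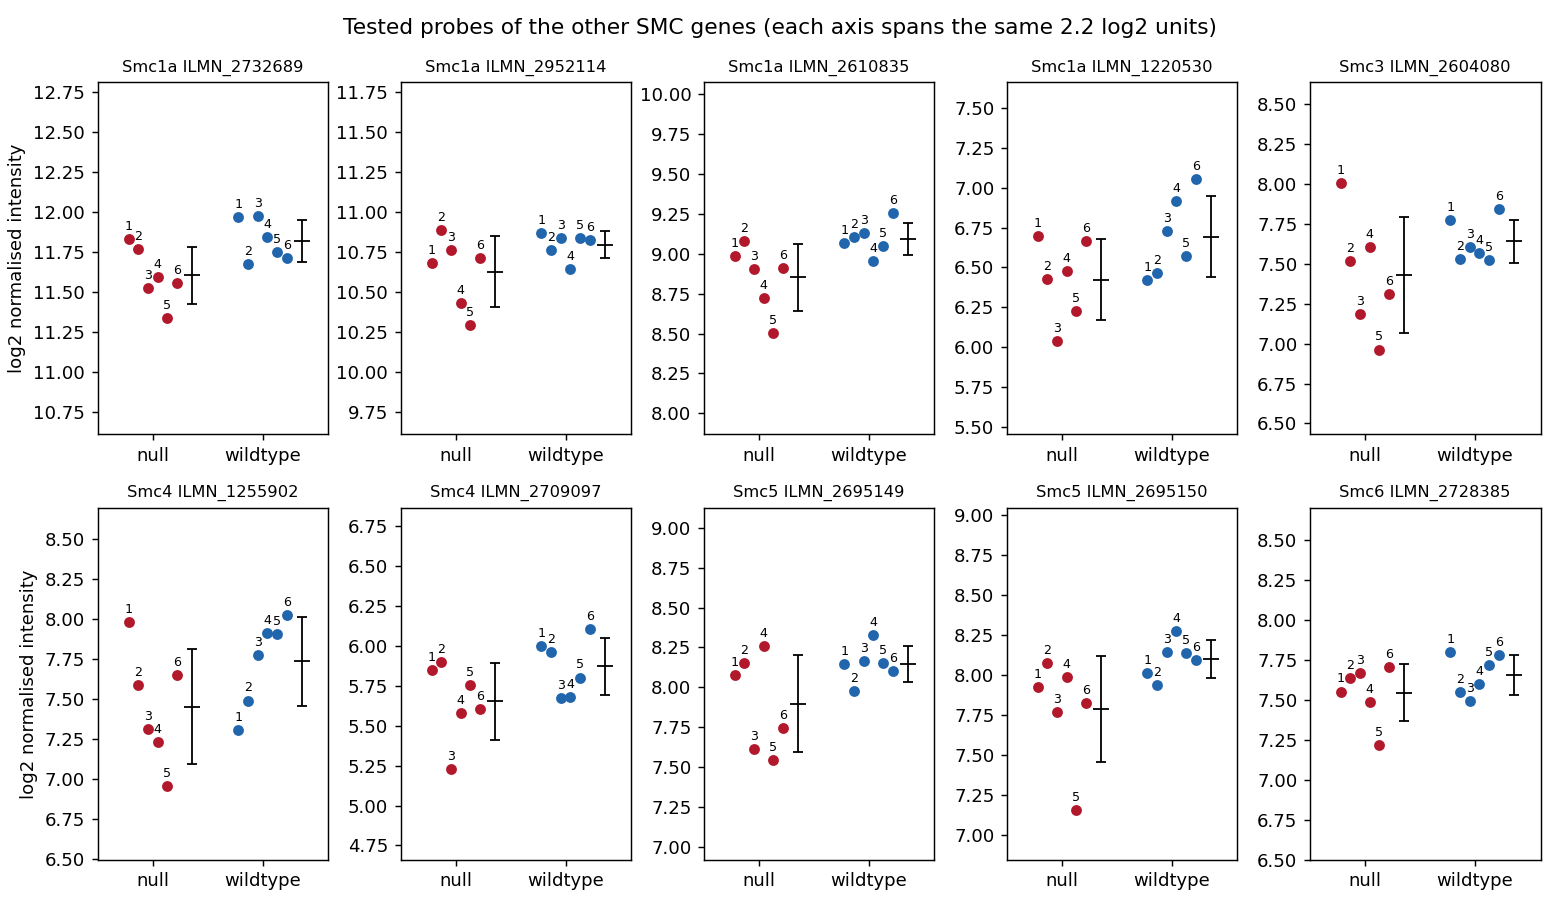
Log2 normalised intensity of the 10 tested probes of Smc1a, Smc3, Smc4, Smc5 and Smc6, null on the left and wildtype on the right of each panel, with points numbered by replicate and bars for the mean and SD of 6 arrays. The groups overlap in every panel, and null 5 is the lowest null array for 8 of the 10 probes.

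**Figure D3:**
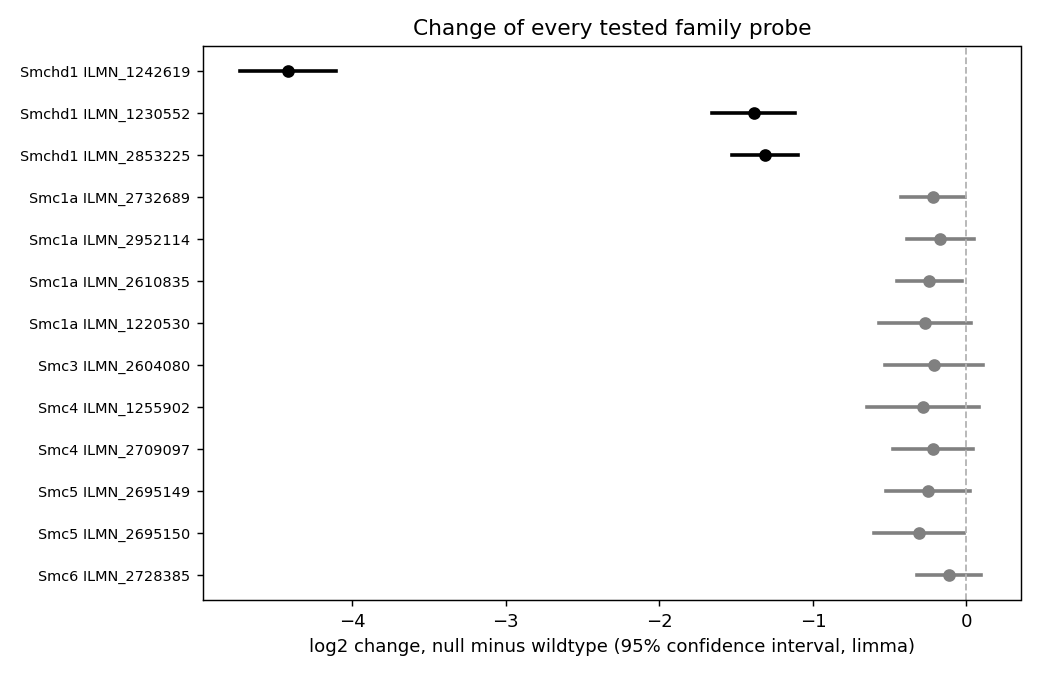
Change of each tested family probe, null less wildtype in log2 units, with 95% confidence intervals from limma. Black marks adjusted p under 0.05 and grey the rest. The 3 Smchd1 probes lie from -4.42 to -1.31 and the 10 others from -0.31 to -0.11. The fitted -1.31 is that of ILMN_2853225, which was not detected on any null array and has only a bound there.

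The SMC genes spread over a wider range in the null arrays, a difference in spread that was not tested. Taking 1 probe per gene, the brightest tested one, the mean of Smc1a, Smc3, Smc4, Smc5 and Smc6 relative to the wildtype mean was 0.09, -0.07, -0.34, -0.17, -0.60 and -0.21 in null 1 to 6. In the wildtype arrays it lay between -0.16 and 0.09. Null 5 was low for all 5 genes, from -0.78 for Smc4 to -0.44 for Smc6, and null 1 lay within the wildtype range. With the genotype means removed, Pearson correlations over the 12 arrays were 0.72 between Smc1a and Smc3, 0.70 between Smc3 and Smc5 and 0.67 between Smc1a and Smc5. Smc6 had lower ones, from 0.17 with Smc5 to 0.40 with Smc4, and those of Smchd1 with the 5 genes lay between 0.14 and 0.38. The genes share their arrays and samples, and these values are descriptions.

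Proliferation genes and markers of other cells also stood apart in some null arrays, and most in null 5. The mean of 17 tested proliferation genes, among them the mitotic kinase Plk1 and the cyclin Ccnb1, stood at -0.07, -0.03, -0.21, -0.19, -0.63 and -0.22 in null 1 to 6, and between -0.05 and 0.08 in the wildtype arrays. None of the 30 proliferation probes was called in limma. Of the 17 genes 3 had an unadjusted p under 0.05 (limma), beside 18.1% of all tested probes. All 17 genes had a change below 0, beside 58.2% of all tested probes, and the median of the genes was -0.24. Nusap1, a spindle protein, was at -0.48 (SE 0.12, limma adjusted p = 0.067), while Plk1, the anaphase activator Cdc20 and Ccnb1 were each at -0.27 (limma adjusted p from 0.20 to 0.28). Over the 12 arrays the proliferation mean's Pearson correlations with the 5 SMC genes ran from 0.58 (Smc4) to 0.79 (Smc1a), genotype means removed. Of 9 T and NK genes on the array 7 were tested, and their mean ran from 0.12 to 1.66 in null and from -0.10 to 0.13 in wildtype arrays, with Cd8a and Ncr1 detected on none. Of these 7 genes Lck alone had a change below 0, at -0.13 (limma adjusted p = 0.74). The mean of 6 plasmacytoid dendritic genes ran from -0.06 to 2.48 in null and from -0.32 to 0.52 in wildtype arrays, with Ccr9 detected on none. The mean of 8 myeloid genes ran from -0.37 to 3.60 in null and from -0.53 to 0.46 in wildtype arrays. The mean of 5 plasma cell genes ran from 0.10 to 0.89 in null and from -0.10 to 0.04 in wildtype arrays, with Prdm1, Jchain and Tnfrsf17 detected on none. Of these 5 genes Irf4 alone had a change below 0, at -0.505 (limma adjusted p = 0.16). The mean of 8 interferon genes ran from -0.14 to 3.30 in null and from -0.26 to 0.50 in wildtype arrays, with Ifit1, Oas1a and Ifi44 detected on none, and that of 4 erythroid genes from -0.99 to 1.33 in null and from -0.36 to 0.77 in wildtype arrays. Null 5 was highest for all of these but the myeloid and erythroid lists, where null 3 was. Irf7 counts in both the plasmacytoid dendritic and the interferon means, so these are not separate. The B-lineage mean ran from -1.13 in null 5 to 0.66 in null 4, and from -0.23 to 0.18 in wildtype arrays. With null 3 and null 5 left out, a choice made after seeing the data, the median change of the 10 SMC probes was -0.13 and 0 passed (limma; 0 had an unadjusted p under 0.05), while the brightest Smchd1 probe changed by -4.38. The part of these other genes in the SMC changes was not tested further.

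**Figure D4:**
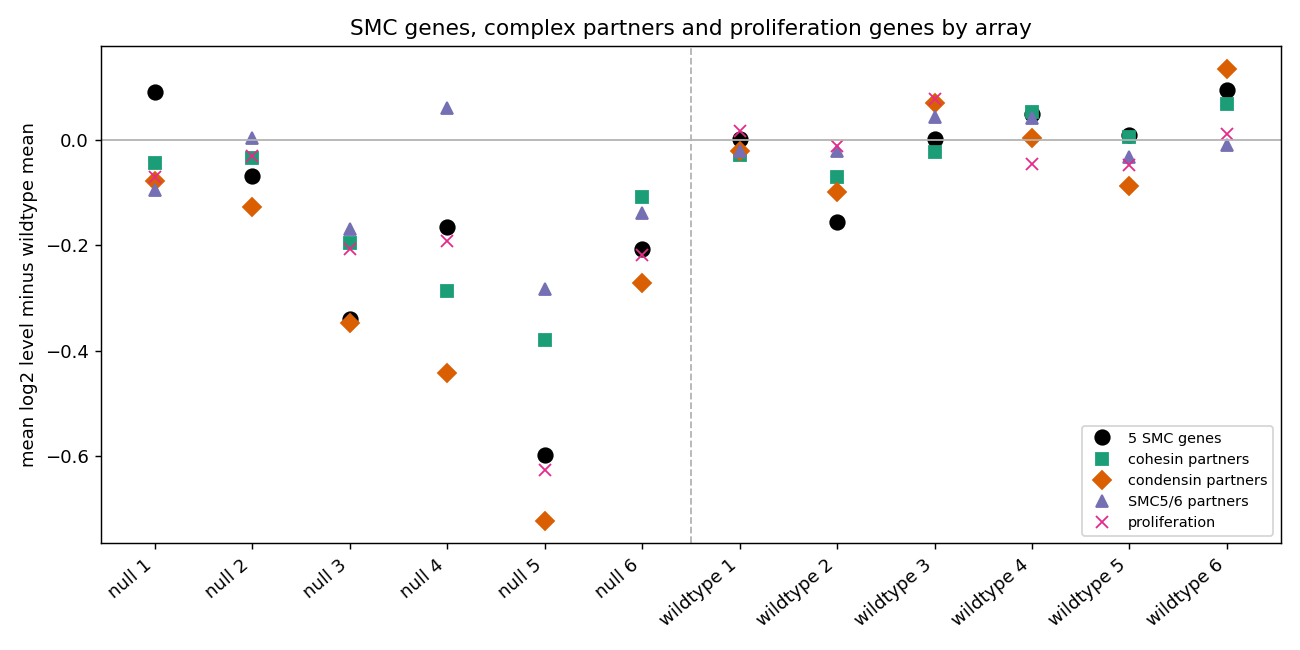
Mean log2 level relative to the wildtype mean, by array, of the 5 SMC genes (black), of the cohesin, condensin and Smc5 and Smc6 complex partners, and of proliferation genes, null arrays on the left and wildtype on the right. Null 5 is the lowest array for all 5 sets, while null 1 and null 2 lie close to the wildtype arrays.

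The subunits that complete the SMC complexes were read from lists of genes. Of 48 tested probes of 26 such genes 2 were called (4.17%), both lower, beside 1.22% of all tested probes. Over all partner lists, the proliferation genes among them, the same 2 were called of 110 tested probes. The 6 condensin partners, the kleisin and HEAT-repeat subunits of both condensins, were all tested. All 6 had a change below 0, beside 58.2% of all tested probes, and their median was -0.29. By their brightest probe 4 of the 6 had an unadjusted p under 0.05 (limma), beside 18.1% of all tested probes. Ncapg2, a HEAT-repeat subunit of condensin II, read 7.14, 7.12, 6.87, 6.73, 6.61 and 7.10 in null 1 to 6, against 7.76, 7.30, 7.50, 7.28, 7.37 and 7.81 in wildtype 1 to 6. The groups did not overlap, and 1.63% of all tested probes likewise had all null arrays below all wildtype arrays. Ncapg2 fell by 0.58 on the log2 scale (SE 0.13, limma adjusted p = 0.047). The call held in 6 of 23 alternatives (limma adjusted p from 0.042 to 0.43) and was lost without any 1 of null 3, 4, 5 and 6 or of the 6 wildtype arrays (0.057 to 0.11). Its other 2 tested probes changed by -0.46 (limma adjusted p = 0.11) and -0.33 (limma adjusted p = 0.26). Of condensin I, Ncapg was at -0.52 (SE 0.15, limma adjusted p = 0.10, detected on 4 of 6 null arrays) and Ncaph at -0.30 (SE 0.13, limma adjusted p = 0.24), and of condensin II, Ncaph2 was at -0.28 (SE 0.10, limma adjusted p = 0.18).

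Cohesin's partners held no called probe among 30 tested. By their brightest probe 8 of 17 genes had an unadjusted p under 0.05 (limma), a larger share than the 18.1% of all tested probes, dim ones included. The median change of the cohesin partners was -0.24, and 15 of 17 genes were below 0, beside 58.2% of all tested probes. Stag2, a subunit bound to the cohesin ring, was at -0.27 (SE 0.08, limma adjusted p = 0.12), and the acetyltransferases Esco2 and Esco1, which lock cohesin on DNA, were at -0.42 (SE 0.14, limma adjusted p = 0.16) and -0.37 (SE 0.14, limma adjusted p = 0.19), though Esco1 was detected on only 2 null and 4 wildtype arrays. Wapl, which releases cohesin from chromatin, had the highest value of the list at 0.61 (SE 0.19, limma adjusted p = 0.13), with null arrays from 6.79 to 8.11 and wildtype arrays from 6.41 to 6.73.

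Of the Smc5 and Smc6 complex 3 partner genes were tested. Nsmce2, its SUMO ligase, had 1 called probe of 3, a probe outside the rule of 1 probe per gene and named after its values were seen. This probe (ILMN_2752497) averaged 6.92 ± 0.18 in null and 7.33 ± 0.10 in wildtype arrays (SD, n = 6 each) and fell by 0.41 on the log2 scale (SE 0.09, limma adjusted p = 0.047), a call that held in 8 of 23 alternatives (0.015 to 0.34). It was lost without any 1 of null 1, 3, 5 and 6 or of wildtype 1, 2, 3, 4 and 6 (0.057 to 0.11). The brightest Nsmce2 probe was at -0.20 (SE 0.08, limma adjusted p = 0.21) and the remaining one at -0.19 (limma adjusted p = 0.37). Nsmce1, a RING-finger subunit, was at -0.07 (limma adjusted p = 0.72) and Slf1, a localization factor detected on 2 null and 3 wildtype arrays, at -0.04 (limma adjusted p = 0.84).

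Genes tied to Smchd1 by binding or by the path that brings it to the inactive X were not called either. Of 6 tested genes 0 passed in limma, with a median of -0.19. Unadjusted p was under 0.05 for 2 of them (limma), beside 18.1% of all tested probes. The heterochromatin proteins Cbx3 and Cbx5 were at -0.29 (limma adjusted p = 0.27) and -0.20 (limma adjusted p = 0.44), and the Polycomb ring-finger genes Pcgf3 and Pcgf5 at -0.23 (limma adjusted p = 0.24) and -0.19 (limma adjusted p = 0.51). Among 11 tested genes with a GHKL ATPase 0 passed (limma; 1 had an unadjusted p under 0.05, beside 18.1% of all tested probes). Their median of -0.02 was close to that of all tested probes. Of the 11 genes 8 had a change below 0, beside 58.2% of all tested probes. Their changes ran from -0.45 to 0.16, the highest being that of an Hsp90 gene. Top2b, a type II topoisomerase, was at -0.45 (SE 0.19, limma adjusted p = 0.23, detected on 4 of 6 null arrays) and Top2a, which decatenates chromosomes in mitosis, at -0.20 (limma adjusted p = 0.38). Pms2, a mismatch repair gene, was at -0.21 (limma adjusted p = 0.32), and Morc2a at -0.14 (limma adjusted p = 0.42). Rad50, an ATPase with an SMC-like fold, was at -0.02 (95% interval -0.20 to 0.16, limma adjusted p = 0.93), and its partner Mre11a at -0.16 (limma adjusted p = 0.35).

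The named genes whose levels over the 12 arrays were most like those of the brightest Smchd1 probe, in either direction, were Lbh (Pearson r = -0.99), Nlrc4 (0.99), Ndn (-0.98), Yipf4 (0.97) and Klhl6 (0.96). These correlations include the difference between the genotypes. Lbh, a transcription cofactor, rose by 1.39 on the log2 scale, with 8.73 ± 0.15 in null and 7.34 ± 0.12 in wildtype arrays (SD, n = 6 each, limma adjusted p = 1.47e-06). Ndn, an imprinted gene, averaged 8.88 ± 0.58 in null arrays, where it was detected on all 6, and 4.49 ± 0.05 in wildtype arrays, where it was detected on none. Nlrc4, an inflammasome sensor, averaged 4.40 ± 0.05 in null arrays, detected on none, and 6.97 ± 0.26 in wildtype arrays, detected on all 6. Yipf4 averaged 4.45 ± 0.08 in null arrays, detected on none, and 5.40 ± 0.14 in wildtype arrays, detected on all 6. Klhl6, a gene of B-cell receptor signalling, averaged 12.11 ± 0.06 in null and 12.48 ± 0.06 in wildtype arrays (SD, n = 6 each). Lbh, Nlrc4 and Yipf4 lie on chromosome 17 as Smchd1 does, with 4, 11 and 12 tested genes between them and Smchd1 in the gene table's order. The genes most like the mean of the 5 SMC genes were Nucks1 (0.97), Zfp821 (0.96), Fam20b (0.96), Tbp (0.96) and Arl6ip1 (0.95), none of which was called (limma adjusted p from 0.17 to 0.47). Nucks1 averaged 9.90 ± 0.24 in null and 10.06 ± 0.06 in wildtype arrays. It was chosen for its likeness to the SMC mean on these arrays, so its wider null spread is no separate observation.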

How the data were processed

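RNA of 12 samples, 6 null and 6 wildtype, was hybridised to 1 array each, with groups, replicate numbers and BeadChips from the labels. The deposited probe tables hold mean bead intensity on a linear scale with no normalization, the number of beads (a whole-number count) and a detection score, a fraction that adds up to 1 with the detection p-value in a further deposited table, per the file headers. They were exported with GenomeStudio 1.8.0, per the file headers. A last table holds the authors' processed log2 values, and the deposited readme gives limma's neqc as their source (limma 3.12.1 and R 2.15.1, per the submitters' processing notes).

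The deposited intensities were corrected with the 936 negative controls, quantile normalized and put on the log2 scale with an offset of 16 (neqc, limma 3.58.1, R 4.3.3). The result differed from the authors' log2 values by at most 5e-09. Probes with a detection p under 0.05 on at least 3 of 12 arrays were tested with lmFit and eBayes over all 17607, without covariates, and adjusted by Benjamini-Hochberg. A bound on a fold sets the wildtype mean against the higher of the lowest detected signal and the probe's own signal on each null array. Of all probes 27400 matched a current symbol, 8341 a single synonym, and 9540 kept the file's name. The gene table (GRCm38.p6) served for names and gene order only, since the files name no build.

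The members and lists were chosen with earlier results of these data known. Named were every member probe, up to 4 genes of smallest p per partner list, and the 5 genes of highest Pearson r over the 12 arrays with the brightest Smchd1 probe (absolute r) and with the SMC mean. Alternatives were median scaling, no background correction, the authors' values, no filter or detection on at least 6 arrays, a block for the BeadChip or for the replicate number, fits of 1 BeadChip at a time, array weights and each array left out. Added after seeing the data were null 3 and 5 left out and the probes under older names. Samples of the same number were not paired by the data: deviations from the group means of same-numbered samples correlated between -0.29 and 0.08. Precision is limited by how many arrays there are.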

Additional observations from a re-analysis of the deposited data

Results flagged for a closer look

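Among 26 sets of 6 arrays (13 tested family probes in each genotype), 1 held an array far from the others by Dixon's test, where chance would flag about 1 in 20. This was the Smc5 probe ILMN_2695150 in null 5, at a log2 level of 7.15, while the other null arrays lay between 7.77 and 8.08. The second Smc5 probe also had its lowest value in null 5, at 7.54, but null 3 lay close to it at 7.61 and the test did not flag it.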

How the results depend on the processing

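With the authors' values, a changed detection filter or a block, the fitted change of every family probe equalled that of the first fit. Its direction could not differ in those alternatives. The fall of the 3 Smchd1 probes kept its direction in all 23 alternatives, and 67 of 69 values stayed called. The exceptions were ILMN_1230552 and ILMN_2853225 on BeadChip 1 alone, at -1.31 each (a fitted value for ILMN_2853225, which no null array detected; limma adjusted p = 0.092 and 0.097), which left 1 family probe called there in place of 3. Without background correction the 3 changes were -2.72, -0.70 and -0.45, since the background compresses them. Leaving out 1 array kept the brightest probe between -4.54 and -4.34 and 3 family probes called. Of 230 values of the other SMC probes none was called, and 229 stayed below 0. The exception was the Smc1a probe ILMN_2952114 on BeadChip 2 alone, at 0.007. The median of these 10 probes ran from -0.31 (median scaling) to -0.13 (null 3 and 5 left out), and was -0.17 without null 5. The count of 215 called probes was 92 with median scaling, 101 without a filter, 12 on BeadChip 1, 43 on BeadChip 2, 104 with the replicate block and 380 with array weights. Leaving out 1 array gave between 68 and 319, with 132 without null 3, 106, 88, 68 and 70 without wildtype 1, 2, 3 and 4, and 68 without wildtype 6. The replicate block ended no member call, and in no pair did both samples correlate best with each other. Of the 110 tested partner probes the 2 called became 0 with median scaling, no filter or either BeadChip alone (limma). The count was also 0 with the replicate block or with null 3 and 5 left out. It lay between 0 and 3 when 1 array was left out. Probes near background, as Smc2, give no level at this signal.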
